A study of Mus musculus with 23 samples.

Results

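REV-ERB and ROR nuclear receptors read the same short DNA element with opposite effect, and 4 genes of these families are described here in the mouse nucleus accumbens, a region of the ventral striatum that serves reward. Nr1d1 and Nr1d2 encode the repressors REV-ERBα and REV-ERBβ, and Rora and Rorb encode the activators RORα and RORβ. The genes were chosen by name, with earlier results of these data known, and they are 4 of 22180 named genes on the array. Each was measured by 1 probe set, numbered 17268884 for Nr1d1, 17303625 for Nr1d2, 17518911 for Rora and 17363390 for Rorb.

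REV-ERB proteins bind a half-site preceded by an A/T-rich stretch, called RORE, and recruit the corepressor NCoR with the deacetylase HDAC3. They need heme as a ligand to do so. ROR proteins bind the same element and recruit coactivators, and the pull between both families shapes the daily rhythm of the clock gene Arntl, also called Bmal1, and of its partners. The heterodimer of the Arntl and Clock proteins drives Nr1d1 and Nr1d2 through E-box elements, which closes a loop. In brain, Rorb is known from layer 4 of the cortex and from sensory thalamus, and Rora from thalamus and cerebellum.

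The study's questions were about social reward and anxiety-related behaviour in relation to Nr1d1 of this region. C57BL/6 mice (C57BL/6J in the description of their housing) received an adeno-associated virus (AAV) in the nucleus accumbens, with a short hairpin RNA against Nr1d1 or with a scrambled hairpin. Whole-transcript arrays were run at about 15 weeks of age and about 5 weeks after the injection, 1 array for each mouse. Among the females 5 were controls and 6 knockdowns, and among the males there were 6 of each, all labelled as biological replicates. All groups, controls included, carried AAV and a hairpin. For the promoter and serotype of the AAV and the hour of collection, the sources used here gave nothing. Postpartum days stand in the labels of males as well, and no use was made of reproductive state. A punch also holds cells that the virus did not reach.

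All levels are log2 intensities as deposited, and each array is 1 mouse. Array medians lay between 6.11 and 6.17 in the 11 female and between 5.84 and 5.88 in the 12 male arrays. The sources used here did not say whether the sexes were processed apart. A difference in level between females and males thus cannot be told apart from this array-wide offset. Sex chromosome genes matched the labelled sex on every array. Medium spiny neuron markers, the main cell type of the region, had list means of 10.68 to 10.94 in females and 10.20 to 10.64 in males. Markers of cortical excitatory neurons, which belong to neighbouring tissue, ranged more widely, from 7.15 to 8.43 in females and from 5.95 to 8.35 in males. The largest swing was in Slc17a7, the vesicular glutamate transporter of cortical neurons, from 4.64 to 10.34 among male controls.

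The stretches just before the RefSeq starts of 3 of the genes are shown to set E-box and RORE half-site letters beside the values of the receptors (250 bases, GRCm38.p6, strand of the gene). Capitals mark a motif match. These are Nr1d1 at chr11:98775378-98775627 (minus strand), Nr1d2 at chr14:18239107-18239356 (minus strand) and Rora at chr9:68653536-68653785 (plus strand).
Nr1d1: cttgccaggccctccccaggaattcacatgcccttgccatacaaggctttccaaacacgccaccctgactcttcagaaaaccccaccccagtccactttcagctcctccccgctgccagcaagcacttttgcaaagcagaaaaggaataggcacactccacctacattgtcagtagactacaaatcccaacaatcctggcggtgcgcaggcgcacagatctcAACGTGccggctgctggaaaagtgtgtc
Nr1d2: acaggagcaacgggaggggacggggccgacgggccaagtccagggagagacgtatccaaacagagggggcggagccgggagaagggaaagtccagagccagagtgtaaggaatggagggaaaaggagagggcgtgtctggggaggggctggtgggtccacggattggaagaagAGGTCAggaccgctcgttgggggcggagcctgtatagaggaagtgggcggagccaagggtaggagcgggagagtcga
Rora: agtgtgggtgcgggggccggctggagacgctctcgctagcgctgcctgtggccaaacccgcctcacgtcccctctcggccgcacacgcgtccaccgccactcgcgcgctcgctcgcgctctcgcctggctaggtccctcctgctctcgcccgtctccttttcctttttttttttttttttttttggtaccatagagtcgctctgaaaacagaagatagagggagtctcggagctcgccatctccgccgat
The motifs searched on both strands were the E-box CACGTG, the E-prime box CACGTT, which reads AACGTG on the opposite strand, the RORE half-site AGGTCA, which reads TGACCT there, and the D-box as TTATGTAA, TTACATAA or TTACGTAA. None of these motifs overlapped another in the 3 windows. The Nr1d1 window held an E-prime box that begins 28 bases before the start, a motif found in 3.85% of 32851 such windows. The Nr1d2 window held a half-site 77 bases before the start, found in 14.02% of windows. The A/T-rich stretch that precedes the half-site in a full RORE was not part of the search. The E-box occurred in 6.02% and the D-box in 0.931% of windows, and neither occurred in these 3. In the Rora window none of the letters searched was found. Rorb has 2 RefSeq starts and its windows are described only. The one at chr19:19111197-19111446 held none of the motifs, and the one at chr19:19001118-19001367 held the same E-prime box as Nr1d1, 234 bases before the start (minus strand for both). GC content was 54.8% for Nr1d1, 63.6% for Nr1d2 and 61.2% for Rora, against a median of 52.4% over all windows. A match is a description of letters, and the arrays do not measure binding.

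The targeted gene, Nr1d1, was no lower in arrays labelled knockdown than the spread between mice allows to be seen. In control females Nr1d1 stood at 10.05, 10.06, 10.09, 9.93 and 10.09. In females labelled knockdown it ran from 9.73 through a median of 9.98 to 10.17. The groups overlapped, and the highest knockdown females, replicates 2 and 5, lay above every control. The difference was −0.05 (SE 0.09, 95% interval −0.24 to 0.13, exact permutation p = 0.563, limma adjusted p = 0.963). In control males Nr1d1 ran from 9.42 through 9.495 to 9.85, and in males labelled knockdown from 9.44 through 9.565 to 9.76. Male control replicates 3 and 5, at 9.84 and 9.85, were the highest of all 12, and the groups overlapped. The male difference was −0.01 (SE 0.09, interval −0.19 to 0.17, exact permutation p = 0.926, limma adjusted p = 0.997). Among arrays labelled knockdown, Nr1d1 lay below the control mean of its sex in 4 of 6 from females and 3 of 6 from males. The lower ends of the intervals correspond to −15.2% in females and −12.3% in males. Because no fall was seen, the groups are called arrays labelled knockdown. In bulk tissue, fewer cells of a type and less RNA per cell cannot be told apart.

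Nr1d2, the other REV-ERB gene and a partly redundant repressor, also overlapped between the groups in both sexes. Control females stood at 9.37, 9.46, 9.37, 9.47 and 9.59, and females labelled knockdown ran from 9.26 through a median of 9.465 to 9.49. Replicates 3 and 5 of the knockdown females, at 9.29 and 9.26, were the only ones under the lowest control, and the other 4 lay inside the control range. The female difference was −0.05 (SE 0.07, interval −0.19 to 0.10, exact permutation p = 0.474, limma adjusted p = 0.961). Without control replicate 5 it was −0.01, and without knockdown replicates 3 or 5 it was −0.02 in either case. Control males ran from 8.72 through 8.86 to 9.11, and males labelled knockdown from 8.72 through 8.82 to 8.91. The knockdown range lay inside the control range, whose top was set by male control replicates 6 and 3 at 9.11 and 9.01. The male difference was −0.07 (SE 0.07, interval −0.20 to 0.07, exact permutation p = 0.377, limma adjusted p = 0.996). It was −0.02 without male control replicate 6 and −0.04 without male control replicate 3.

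Rora, the activator that competes for the same elements, was the gene of the 4 with the most regular difference, and the difference was small. Control females stood at 8.20, 8.35, 8.14, 8.0 and 8.17, and females labelled knockdown ran from 7.99 through a median of 8.085 to 8.15. The groups overlapped, with control replicate 4 at 8.0 and control replicate 3 at 8.14 below the highest knockdown females, and control replicate 2, at 8.35, stood above all others. The female difference was −0.09 (SE 0.06, interval −0.21 to 0.03, exact permutation p = 0.175, limma adjusted p = 0.885), and −0.05 without control replicate 2. Control males ran from 7.83 through 7.955 to 8.17, and males labelled knockdown from 7.81 through 7.87 to 7.94. All 6 knockdown males lay under the control mean of 7.97, and all but 1 above the lowest control. The male difference was −0.10 (SE 0.06, interval −0.22 to 0.02, exact permutation p = 0.0736, limma adjusted p = 0.996).

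Rora thus lay below the control mean of its sex in 12 of 12 mice labelled knockdown. Of all 41345 probe sets 0.23% did so (95 probe sets). The pattern was known from earlier results of these data when the genes were chosen. This share and the Rora p values are therefore a description and not an independent test. Averaged over the sexes, the Rora difference was −0.09 (SE 0.04, interval −0.18 to −0.0084, or −11.7% to −0.582%), a change of −6.33%. Its exact permutation p within sexes was 0.0210 over 426888 assignments. In limma the unadjusted p was 0.0328, as it was under 0.05 for 4.71% of all probe sets, and the Benjamini-Hochberg adjusted p was 0.980. The share of probe sets past the adjusted threshold of 0.05 was 0 in females, males, the average and the difference between the sexes, with 1949 at an unadjusted p under 0.05 in the average. Of those 1949, 1072 were higher, against 770 of 1929 with array medians subtracted. Without male control replicates 1 and 6, which earlier results on these data set apart, the Rora average was −0.07 (limma unadjusted p = 0.102). Male control replicate 6 alone, at 8.17, was the highest male Rora value, and without it the male difference was −0.06 (from −0.10).

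Rorb, the activator known from layer 4 cortex and thalamus, was higher on average in arrays labelled knockdown, by less than its spread between mice. Control females stood at 9.68, 9.87, 10.04, 9.98 and 10, and females labelled knockdown ran from 9.85 through a median of 10.065 to 10.30. The lowest value of both was control replicate 1, and 3 of the 6 knockdown females lay above every control. The female difference was 0.13 (SE 0.09, interval −0.06 to 0.33, exact permutation p = 0.234, limma adjusted p = 0.889), and 0.08 without control replicate 1 or without knockdown replicate 6. Control males ran from 9.11 through 9.415 to 9.53, and males labelled knockdown from 9.23 through 9.46 to 9.61. Control replicate 4 was the lowest of the males, and only knockdown replicate 4 exceeded all controls. The male difference was 0.03 (SE 0.09, interval −0.15 to 0.22, exact permutation p = 0.732, limma adjusted p = 0.996).

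**Figure D1:**
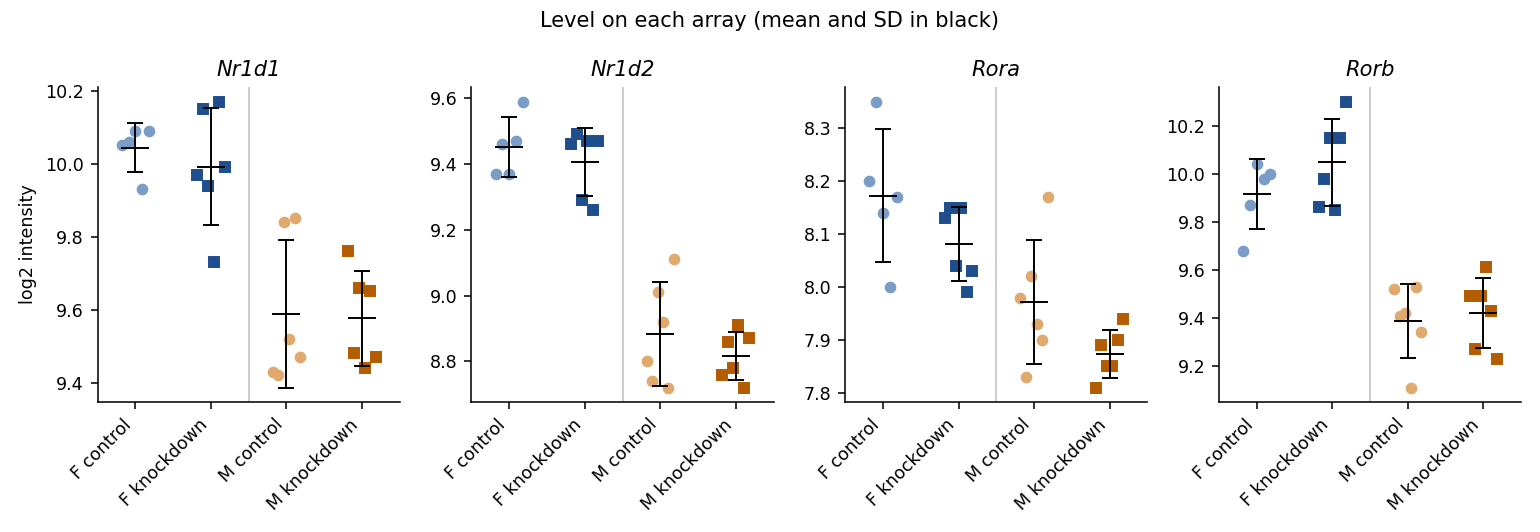
Log2 intensity (vertical axis) of Nr1d1, Nr1d2, Rora and Rorb in each of the 23 arrays, by sex and group, with points for mice and bars for group means with SD. Control and knockdown points overlap in every panel, and in Rora the knockdown males sit between 7.81 and 7.94.

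Averaged over both sexes the differences were −0.03 for Nr1d1 (SE 0.06, interval −0.16 to 0.10), −0.06 for Nr1d2 (SE 0.05, interval −0.15 to 0.04) and 0.08 for Rorb (SE 0.06, interval −0.05 to 0.22). Their exact permutation p values were 0.605, 0.228 and 0.221, and the limma adjusted p values 0.990, 0.980 and 0.980. A difference between the sexes in the knockdown effect was tested for each gene. It was 0.04 for Nr1d1, −0.02 for Nr1d2, −0.01 for Rora and −0.10 for Rorb (male minus female), with SE of 0.12, 0.10, 0.08 and 0.13 and limma adjusted p from 0.962 to 0.997. The smallest p that an exact permutation test can give in either sex is 0.00216. Genes that mark astrocytes, a cell type that expresses Rora, were lower in 8 of 10 genes on average (median −0.06), and 0 passed the threshold. Of all named genes 51.3% were higher, with a median of 0.002. By sex, 9 of 10 astrocyte markers were lower in females and 6 of 10 in males. After quantile normalization 7 of 10 were lower on average. The part of these markers in the Rora difference was not tested.

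**Figure D2:**
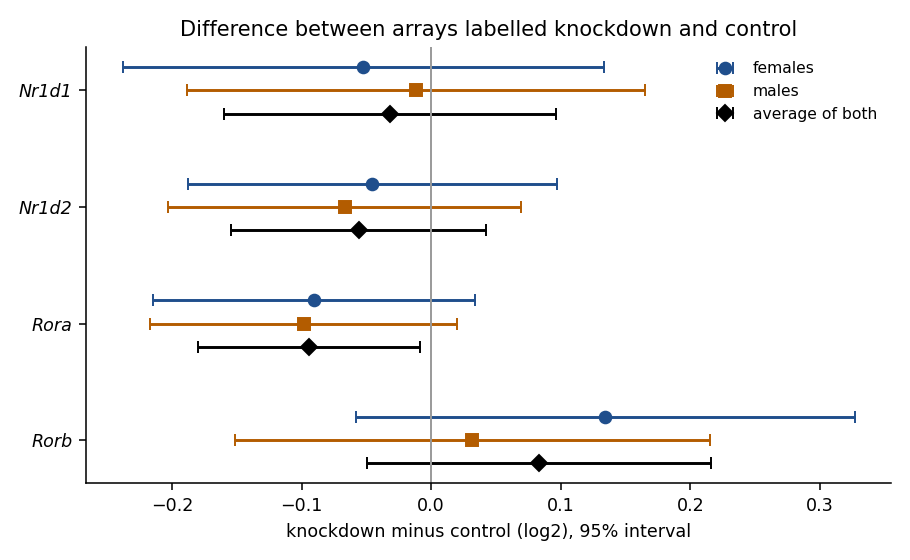
Differences in log2 intensity between arrays labelled knockdown and controls, with 95% intervals from limma, for each gene in females, in males and averaged. The Rora average of −0.09 has an interval of −0.18 to −0.0084, and all other intervals cross 0.

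The spread between mice of 1 group was not alike for the 4 genes. The pooled SD was 0.15 for Nr1d1 and 0.16 for Rorb, above that of 74.6% and 78.1% of all named genes. It was 0.11 for Nr1d2 and 0.09 for Rora, above that of 41.1% and 23.7%, with a median of 0.12 over all genes. Control females exceeded control males by 0.46 for Nr1d1, 0.57 for Nr1d2, 0.20 for Rora and 0.53 for Rorb. All named genes had a median gap of 0.28 (quartiles 0.15 to 0.40). Rora sat inside and the other 3 above these quartiles, and sex cannot be told apart from the array-wide offset in this gap.

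How the genes moved together between mice was measured by centring each gene on its group and correlating the deviations over the 23 arrays. Nr1d2 and Rora varied together most closely of the 6 pairs, with a Pearson r of 0.56 (permutation p = 0.0178, adjusted over 6 pairs 0.107) and a Spearman rho of 0.56 (permutation p = 0.0163, adjusted 0.0489). In the 12 males r was 0.78 (permutation p = 0.0132, adjusted 0.0795) and in the 11 females 0.30 (permutation p = 0.365, adjusted 0.849). The relation leaned on male controls 5 and 6, the 2 arrays farthest from the median of Nr1d2, without which r was 0.38 (permutation p = 0.124). Without male control replicate 6 alone it was 0.39. Of the 22179 other genes, 791 (3.57%) had a higher r with Nr1d2 than Rora had, and 374 (1.69%) a higher r with Rora than Nr1d2 had.

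Rora and Rorb ran opposite to each other between mice. Their r was −0.42 (permutation p = 0.0586, adjusted 0.176) and their rho −0.56 (permutation p = 0.0127, adjusted 0.0489). It was −0.57 in females (permutation p = 0.0691) and −0.26 in males (permutation p = 0.462), and −0.50 without the 2 arrays farthest from the median of Rora (permutation p = 0.0406). With the cortical or the astrocyte list regressed out of both genes it was −0.28 or −0.30. With the mean of endothelial and mural markers regressed out, an alternative added after this list was seen to correlate with both genes, it was −0.05. Of the other genes, 7.01% had a lower r with Rora than Rorb had.

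Nr1d1 had no close partner among the other 3 genes. Its r with Nr1d2 was −0.22 (rho −0.19), with Rora −0.09 (rho −0.12) and with Rorb 0.29 (rho 0.23), at permutation p of 0.417, 0.740 and 0.227. Without the 2 arrays farthest from the median of Nr1d1, these were 0.0023, 0.10 and 0.07. Nr1d2 and Rorb had an r of −0.23 (rho −0.24, permutation p = 0.325), and −0.17 without their 2 farthest arrays. With the cortical neuron list regressed out, Nr1d1 and Rorb had an r of 0.56 (permutation p = 0.0125, adjusted 0.0753) and Nr1d1 and Nr1d2 of −0.45 (permutation p = 0.0515, adjusted 0.113).

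**Figure D3:**
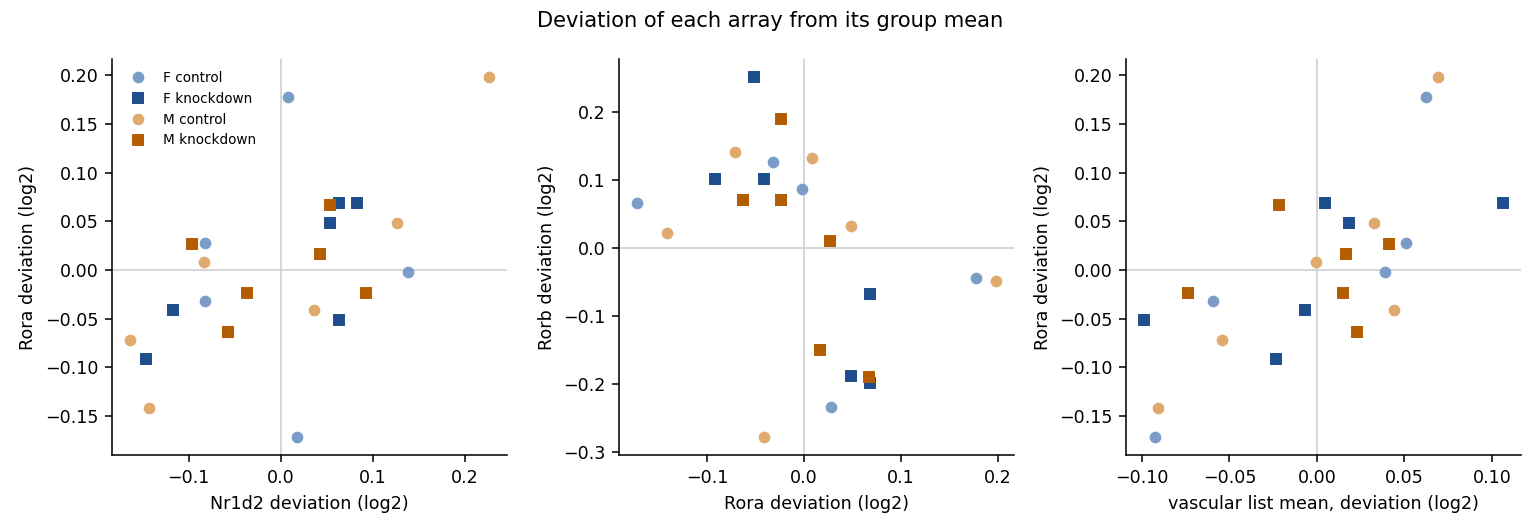
Deviation of each of the 23 arrays from its group mean, in log2 units on both axes, for Rora against Nr1d2, Rorb against Rora, and Rora against the mean of endothelial and mural markers, with 1 point for each mouse. Rora slopes upward with Nr1d2 (r = 0.56) and with the marker mean (r = 0.71), and Rorb slopes downward with Rora (r = −0.42).

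Each gene was also set against 18 marker and pathway lists, which gave 72 relations. Rora followed endothelial and mural markers, with r = 0.71 to the mean of 6 genes (permutation p = 0.00036, adjusted over 72 relations 0.0259) and rho = 0.69 (permutation p = 0.00129, adjusted 0.0623). It was 0.76 in females and 0.64 in males, and 0.65 without the 2 arrays farthest from the median. All 6 genes of the list had a positive r with Rora, highest for Flt1, a VEGF receptor of endothelium, at 0.52, and for Pdgfrb, the PDGF receptor of pericytes, at 0.48. The others were Pecam1 at 0.35, Cldn5 at 0.35, Rgs5 at 0.27 and Slco1a4 at 0.24. By sex, Flt1 was at 0.84 in females and 0.12 in males, and Pdgfrb at 0.73 and 0.17. The list mean ran from 8.41 to 8.61 in females and from 8.20 to 8.36 in males. Of its 6 genes 4 were higher in arrays labelled knockdown on average (median 0.02), and 0 passed the threshold. Rorb ran opposite to the list (r = −0.56, adjusted permutation p = 0.222), with −0.76 in females and −0.29 in males. Within it Cldn5, a tight junction gene of endothelium, had an r of −0.59 with Rorb and −0.68 with Nr1d1. With Nr1d1 the rest of the list went the other way: Rgs5 at 0.42, Pecam1 at 0.36, Flt1 at 0.09, Slco1a4 at 0.07 and Pdgfrb at 0.01. The list mean had an r of −0.13 with Nr1d1 (adjusted permutation p = 0.723). With Rorb only Rgs5 was positive, at 0.17.

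Other relations did not pass after adjustment. Nr1d2 ran opposite to Thra, the thyroid hormone receptor gene that overlaps the end of Nr1d1 on the other strand, with r = −0.67 (permutation p = 0.0017, adjusted 0.0612) and rho = −0.66 (permutation p = 0.00173, adjusted 0.0623). It was −0.78 in females, −0.64 in males and −0.75 without the 2 farthest arrays. Nr1d1 itself had an r of 0.06 with Thra. Nr1d1 followed the coactivator list at 0.62 (adjusted permutation p = 0.222), in which the acetyltransferase gene Ep300 had the highest r at 0.62. Nr1d2 followed the layer 4 and thalamic list at 0.57 (adjusted permutation p = 0.222), with 0.85 in males and −0.06 in females. That r was 0.34 without the 2 farthest arrays. The members did not go one way: with Nr1d2, Slc17a6, the thalamic glutamate transporter, had the highest absolute r at 0.67, while Rspo1 was at −0.60 and Scnn1a at −0.36. Rora had an r of 0.51 with astrocyte markers and Rorb of 0.45 with cortical neuron markers (adjusted permutation p = 0.289 for both). The genes with the highest absolute r were Gja1, an astrocyte gap junction gene, with Rora at 0.63 and the neuronal transcription factor Neurod2 with Rorb at 0.55. Of the astrocyte markers only Slc1a2 was negative with Rora, at −0.26, and Gfap was at 0.02. Of the cortical markers only Cux2 was negative with Rorb, at −0.02. Without the 2 farthest arrays the list values were 0.31 for each. By sex, the r of Rorb with the cortical list was 0.68 in females and 0.40 in males. With Slc17a7 alone it was 0.66 in females and 0.36 in males. Slc17a7 swung by over 5 log2 units among male controls, and Rorb there lay between 9.11 and 9.53. The part of cortical tissue in the spread of Rorb was not tested.

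The genes nearest to each receptor over the 23 arrays are a description, since they were picked by rank. For Nr1d1 they were Papss2 (r = 0.88), which makes the sulfate donor PAPS, the peroxisomal catalase gene Cat (0.88), Rab2b (0.87), Reep6 (0.87) and the mitochondrial aspartate carrier Slc25a12 (0.87). The lowest were Sptan1, a spectrin, at −0.85 and the pyrophosphatase Ppa1 at −0.83. For Nr1d2 they were Gdi2, a Rab regulator, at 0.85, Dcun1d5 at 0.84, Rhobtb3 at 0.83, Arhgap12 at 0.81 and Riok3 at 0.81. The lowest were Iqsec2 at −0.85 and Rgr at −0.83. Nearest to Rora were Chd1l at 0.81, the lysosomal receptor Scarb2 at 0.80, Cwf19l2 at 0.79, Mir1904 at 0.78 and Hscb at 0.76, with Vmn1r82 at −0.79 and Slc47a2 at −0.77 at the other end. For Rorb they were Opcml at 0.86, the cadherin Cdh12 at 0.85, St6gal2 at 0.84, the synaptic gene Snap25 at 0.84 and the transcription factor Nfia at 0.83, with Ddrgk1 at −0.82 and Srrt at −0.77. No list of nearest genes held another of the 4 receptors. Of all other genes, an r over 0.5 was held by 4.03% with Nr1d1, 5.88% with Nr1d2, 3.22% with Rora and 3.72% with Rorb.

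Genes that REV-ERB and ROR proteins regulate were then counted, from lists put together with earlier results of these data in view. In each list 0 genes passed the threshold in the average, where 51.3% of all named genes were higher with a median difference of 0.002. The RORE-driven clock genes Arntl, Clock, Npas2, Cry1 and Nfil3 were higher in 5 of 5 (median 0.07), led by Npas2, a Clock relative, at 0.14 (SE 0.07), and Nfil3, a D-box repressor, at 0.07 (SE 0.04). Nfil3 was at 0.17 in females and −0.03 in males, so 5 of 5 were higher in females and 4 of 5 in males. The mean of these 5 genes ran from 9.16 to 9.22 in control females and from 9.24 to 9.33 in females labelled knockdown. These female ranges did not touch, but a list mean was given no test. In females 0 of the 5 genes passed the threshold. How often means of 5 other genes part in this way was not counted, so the gap is a description only. In males the ranges were 8.80 to 8.99 and 8.82 to 9.03 and overlapped almost wholly. After subtracting array medians and after quantile normalization it was still 5 of 5 on average, with medians of 0.06 and 0.07.

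Clock genes driven by E-box and D-box elements were higher in 9 of 9 (median 0.03), in 5 of 9 in females and 8 of 9 in males, with Per1, a clock repressor, at 0.14 (SE 0.05, limma unadjusted p = 0.0124) and Per3 at 0.05 (SE 0.03). In females 3 of 9 were higher after subtracting array medians, where the median of all genes was −0.03. REV-ERB targets outside the clock were higher in 7 of 9 (median 0.02), with the astrocyte lipid carrier Fabp7 at 0.18 (SE 0.08) and the apolipoprotein gene Apoc3 at 0.07 (SE 0.04).

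The partners of the receptors lay near the average of all genes. Corepressor genes were higher in 1 of 4 (median −0.02), with Hdac3, the deacetylase of the NCoR complex, at −0.07 (SE 0.03, limma unadjusted p = 0.0466) and Gps2 at 0.04 (SE 0.05). After quantile normalization 2 of 4 were higher. Hdac3 was at −0.14 in females and −0.005 in males. Coactivator genes were higher in 3 of 5 (median 0.02), with Ep300 at 0.08 (SE 0.04) and Crebbp at 0.03 (SE 0.03). Heme synthesis and breakdown genes were higher in 5 of 11 (median −0.02), with the synthesis enzymes Alad at −0.08 (SE 0.04) and Uros at −0.06 (SE 0.03). After subtracting array medians 3 of 11 were higher. Genes that control REV-ERB protein turnover were higher in 2 of 5 (median −0.0028), with the ubiquitin ligase Mycbp2 at −0.03 (SE 0.03) and the kinase Gsk3b at 0.01 (SE 0.03).

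**Figure D4:**
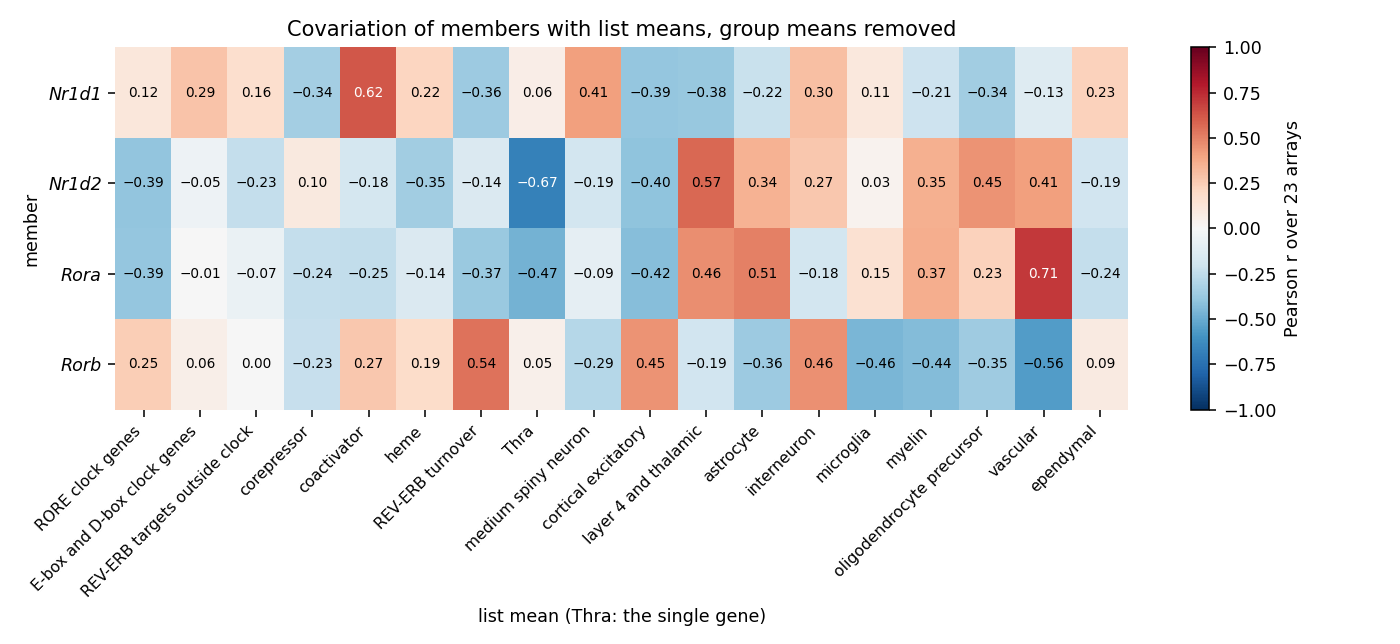
Pearson r of group-centred log2 levels between each of the 4 genes (rows) and each of 18 lists (columns, list means or Thra alone) over the 23 arrays, printed in the cells. The Rora cell for endothelial and mural markers holds the highest value, 0.71, and the Nr1d2 cell for Thra the lowest, −0.67.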

How the data were processed

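Total RNA of the micropunched nucleus accumbens was labelled from 150 ng, per the labels' protocols. The authors deposited log2 intensities per probe set in a table of 41345 probe sets and 23 arrays, made with Transcriptome Analysis Console, per the submitters' processing notes. Its version, the normalization method and the build were each not given in the sources used here, and signal over background was not used.

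Probe sets with 1 symbol in the platform annotation (23521, against 1814 with several and 16010 with none) named 22180 genes, each by its probe set of highest mean. Of these 23521, 23328 were matched by Entrez number to GRCm38.p6. All 23 arrays entered 1 model in limma 3.58.1 (R 4.3.3) with a mean per group, two-sided tests and Benjamini-Hochberg adjustment over all probe sets at 0.05 (19 residual and 3.24 prior degrees of freedom). Each gene was also compared by exact permutation of labels within sex. Covariation used Pearson r and Spearman rho of group-centred levels with 100000 permutations within groups (numpy 2.4.6, Python 3.11.15). The scripts were tested on simulated data.

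The genes named are the 4 receptors, the 5 highest and 2 lowest genes by r with each, of each pathway list those past the threshold or else the 2 with the smallest p in the average, and, where a marker list is described with a receptor, its gene with the highest absolute r to that receptor. Further genes are list members named to show a list in full or its other direction, and Slc17a7, Nfil3 by sex, Cldn5 with Nr1d1, the sex check and Hdac3 by sex, chosen after their values were seen. The receptors and lists were chosen with earlier results of these data known, and the 12 of 12 pattern of Rora was among them. Alternatives were other scalings, each sex alone, array weights, a filter on dim probe sets, marker lists as covariates, a replicate block and each array left out.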

Additional observations from a re-analysis of the deposited data

Results flagged for a closer look

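The 4 receptors, Thra and Slc17a7 were each screened in each of the 4 groups for a single far array. Of these 24 sets of 5 or 6 values, 3 held a value that stood apart, where chance marks about 1 set in 20. For Nr1d1, female control replicate 4 was at 9.93, with 0.75 of the range of its group between it and the nearest array. For Slc17a7, male knockdown replicate 6 was at 5.37 (0.728 of the range). For Thra, male knockdown replicate 2 was at 9.50 (0.647 of the range).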

How the results depend on the processing

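The differences of the 4 receptors were small against their SE, and those nearest 0 changed sign with the processing while none passed the adjusted threshold. With the cortical list mean (centred within sex, added after seeing the data) as a covariate, the male difference was 0.019 for Nr1d1 and −0.0049 for Rorb, and the male minus female effect 0.00064 for Nr1d2 and 0.011 for Rora. Without male control replicates 1 and 6 the male minus female effect was −0.0285 for Nr1d1, 0.0145 for Nr1d2 and 0.0437 for Rora. With array medians subtracted it was 0.0123 for Nr1d2 and 0.0257 for Rora. The other 127 values of differences kept sign and call. They leave out covariates centred within groups, and those from each sex alone or the dim filter could change only the error. The Rora average lay between −0.10 and −0.07 in its alternatives, with adjusted p of 0.912 or more.

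With each array left out in turn, the ranges were −0.088 to 0 for Nr1d1 in females, −0.0483 to 0.0407 for Nr1d1 in males and −0.024 to 0.0697 for Rorb in males. For the male minus female effect they were −0.0117 to 0.093 for Nr1d1, −0.0558 to 0.024 for Nr1d2 and −0.0525 to 0.035 for Rora. The Rora average ran from −0.12 to −0.07 (unadjusted p 0.00872 to 0.0842).

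Covariation by Spearman rho passed for Nr1d2 and Rora (0.56) and for Rora and Rorb (−0.56), which Pearson r did not. The r of Nr1d1 and Nr1d2 was 0.0023 without the 2 farthest arrays. The r of Nr1d1 and Rora was 0.10 without the 2 farthest arrays, 0.0301 with the astrocyte list and 0.0067 with the vascular list regressed out, and 0.0768 without male control replicates 1 and 6. With single arrays left out it ran from −0.216 to 0.0232, and that of Nr1d2 and Rora from 0.39 to 0.66.

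The count of probe sets past the threshold was 1 in the average with the vascular list as a covariate, 1 in males and 1 in the male minus female effect without male control replicates 1 and 6, and 1 in the latter with array weights. With single arrays left out it was 0 to 1 in females, males and the male minus female effect. None of these was the probe set kept for a named gene.

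With the replicate number as a replicate block, the Rora average was −0.0892 (unadjusted p = 0.0573), and no call changed. Same-numbered control and knockdown arrays had correlations of their deviations from −0.0959 to 0.135. Of 11 numbers only male number 6 correlated best with its own. The values thus gave no sign of pairing by number, but low correlations cannot exclude it. Each receptor had 1 probe set, so the alternative of another probe set gave no value. A covariate centred within groups cannot move a difference. The cause of these changes was not tested.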
